A study of Mus musculus with 120 samples.

Results

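Sqstm1 and 9 genes of the NRF2 oxidative stress pathway were followed in 120 single mouse group 2 innate lymphoid cells (ILC2), and all 10 were among the 46078 genes in the count files. Sqstm1 was chosen by its high summed level 30 min after the onset of cytokine secretion, so its levels are given as a description. Nfe2l2, Keap1, Hmox1, Nqo1, Txnrd1, Gclm, Srxn1, Slc7a11 and Prdx1 were chosen as named genes of the pathway, and the question was whether they share the peak of Sqstm1.

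ILC2 are lymphocytes that secrete interleukin (IL) 13 and IL-5 soon after IL-33 reaches them. The cells were c-Kit+Sca-1+ lineage-negative cells sorted from the mesentery (labelled fat tissues) of 20 wildtype C57BL/6 mice, pooled before sorting, and were kept in culture with IL-2 for months before use. All but the pre cells received IL-33 together with IL-2 during live imaging of the secretion of 1 cytokine, the index, and the cells imaged for IL-13 and for IL-5 are called the IL-13 arm and the IL-5 arm here. Each arm held 5 cells taken before stimulation (pre) and 11 cells at each of 30, 60 and 90 min after secretion of its index cytokine began. It also held 11 activated cells in which that secretion was detected and 11 silent cells in which it was not, both after stimulation. All groups shared the same mouse strain, cell source and culture, and the pre cells were on the first of the 2 dates in the sample titles only. The arms share no title date, so arm and date cannot be told apart.

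Because the labels tie no cell to a mouse or a dish, each group counted as 1 sample and no difference between groups was tested. A level is given in CPM, which is the sum of a gene's reads in a group per 1000000 reads of all genes there, and its 95% interval is exact Poisson. Ratios have exact Clopper-Pearson 95% intervals. The libraries carried no molecular identifiers, so all intervals cover counting error only and not the spread between cells. Gene reads per cell ran from 65 to 785198 with a median of 254001, and 6 cells lay under 84667 reads, the median divided by 3. Values of single cells below are from the 114 other cells. All 13 ILC2 markers had reads, with a summed level of 6370 to 14212 CPM in the 12 groups, whereas 4 of 4 B cell markers and 5 of 5 NK cell and ILC1 markers had 0 reads. Of 8 T cell markers, 4 had reads and Cd4, Cd8a, Cd8b1 and Cd5 had none. Their summed level, all Cd3g in the pre cells, was 1128 CPM in the IL-13 pre cells and 1195 CPM in the IL-5 pre cells against 0 to 523 CPM in the other groups. Reads of ILC3 markers came from 3 of 4 genes, at 344 CPM in activated cells of the IL-13 arm, all Il22, at 11.7 CPM in silent cells there and at 0 in the other groups. Myeloid markers had reads in 2 of 6 genes, at 0 to 38.3 CPM, and mast cell and basophil markers in 2 of 6, at 0 to 326 CPM. Of 6 stromal and adipocyte markers only Pecam1 had reads, in 65.8% of the 114 cells, at 0 and 38.5 CPM in pre and 30 min cells of the IL-13 arm and at 5.77 and 175 CPM in those of the IL-5 arm. The part of these markers in the results was not tested. Marker genes were named by the rule for list genes given below, which takes those with the largest ratios. By it Rora, Il2ra and Icos of ILC2 had log2 ratios of 30 min to pre cells of 3.71, 1.31 and -1.06 in the IL-13 arm. The summed level of all 13 ILC2 markers was 12523 and 11629 CPM in pre and 30 min cells there, and 11786 and 12912 CPM in the IL-5 arm. Fcer1a of mast cells and basophils was at 301 CPM in the IL-13 pre cells and had 0 reads at 30 min.

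Sqstm1 encodes p62, an autophagy receptor that carries ubiquitin-tagged cargo to the autophagosome and also serves as a scaffold in NF-κB signalling. In resting cells KEAP1 holds the transcription factor NRF2, the product of Nfe2l2, for degradation. Electrophiles and oxidants, or p62 that takes up KEAP1, free NRF2, which then switches on genes with an antioxidant response element, among them Nqo1, Txnrd1, Gclm, Srxn1 and, by textbook accounts, Sqstm1 itself.

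Promoter sequences are shown because shared elements are the usual basis for treating these genes as one pathway. RefSeq windows (GRCm38.p6) of 300 bases, 250 before and 50 after a start site, were found for 9 of the 10 members, and Hmox1 was not matched. The core of the antioxidant response element, TGACNNNGC on either strand, was in windows of 5 members, Nfe2l2, Txnrd1, Gclm, Srxn1 and Prdx1, and in 12.4% of all 32851 windows. Such shares are per window, and the windows belong to 27025 gene symbols. A member was counted with a match in any of its windows, and Txnrd1 had 3. TGANTCA, the AP-1 site, was in windows of Srxn1 and Prdx1 and in 7.81% of all windows, and in Prdx1 it overlaps the antioxidant element at 1 of its 2 places. The κB site was in no member and in 0.411% of windows. TGATGNAA, the C/EBP-ATF response element, was found 2 times in Slc7a11 and in 3.97% of windows. The windows of Sqstm1, Keap1 and Nqo1 held none of the 4 motifs, which says only that these letters are not in them. Stretches before the start are printed 5′ to 3′ on the strand of the gene, with the matches in capitals. For Sqstm1 the 100 bases next to its start are given, at chr11:50210821-50210920 on the minus strand. The others lie at chr2:75704880-75704913 (minus strand) for Nfe2l2, chr10:82859099-82859137 (plus strand) for the second of 3 starts of Txnrd1, chr3:122245408-122245446 (plus strand) for Gclm, chr2:152105407-152105500 (plus strand) for Srxn1, chr3:50443638-50443694 (minus strand) for Slc7a11 and chr4:116685451-116685489 (plus strand) for Prdx1. The capitals mark the antioxidant element in Nfe2l2, Txnrd1 and Gclm, the AP-1 site in Srxn1, the C/EBP-ATF element in Slc7a11 and the overlap of the antioxidant element with AP-1 in Prdx1. The match of Srxn1 to TGACNNNGC lies after its start and is not printed. Other forms of the antioxidant element were not searched for, so the printed stretches may hold some that are not marked.
Sqstm1: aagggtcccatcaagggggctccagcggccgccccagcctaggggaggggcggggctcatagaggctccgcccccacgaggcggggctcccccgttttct
Nfe2l2: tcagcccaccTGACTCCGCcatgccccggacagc
Txnrd1: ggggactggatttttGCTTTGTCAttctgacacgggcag
Gclm: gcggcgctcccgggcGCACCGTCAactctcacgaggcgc
Srxn1: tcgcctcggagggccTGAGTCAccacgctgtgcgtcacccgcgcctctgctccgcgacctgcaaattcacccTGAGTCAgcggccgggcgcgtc
Slc7a11: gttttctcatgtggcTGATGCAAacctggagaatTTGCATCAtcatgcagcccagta
Prdx1: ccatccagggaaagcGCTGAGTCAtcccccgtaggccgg

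Sqstm1 (ENSMUSG00000015837, chr11:50199366-50210827, minus strand) stood far higher in summed reads during the transition than before stimulation or in activated and silent cells. In the IL-13 arm it was at 209 CPM (182 to 240) in the pre cells, 10922 CPM (10797 to 11048) at 30 min, 10169 CPM at 60 min and 4872 CPM at 90 min. In activated cells it stood at 357 CPM (337 to 378) and in silent cells at 764 CPM. Thus it was 52.1-fold higher at 30 min than before stimulation (log2 ratio 5.70, 5.50 to 5.91) and 30.6-fold higher than in activated cells (log2 ratio 4.94, 4.85 to 5.02). The 5 pre cells held 5.93, 28.4, 213, 382 and 504 CPM of Sqstm1, while the 11 cells at 30 min ran from 1171 to 20820 CPM with a median of 8671 CPM. Activated cells ran from 0 to 1076 CPM with a median of 188 CPM. Silent cells reached 1770 CPM, and 2 of the 11 lay above the lowest cell at 30 min. The lowest cells at 60 and 90 min, at 587 and 1002 CPM, were also below that value. Every cell at 30 min lay above every pre cell and above every activated cell. Of all genes, 0.328% had this separation from the pre cells and 0.0852% from the activated cells in the IL-13 arm, and since Sqstm1 was chosen on this contrast nothing is read from these shares.

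The IL-5 arm also had its highest level of Sqstm1 at 30 min, at a lower value. Sqstm1 was at 369 CPM (335 to 405) in the pre cells, 4432 CPM (4363 to 4502) at 30 min, 1951 CPM at 60 min, 3361 CPM at 90 min, 245 CPM (230 to 262) in activated cells and 601 CPM in silent cells. It was 12.0-fold higher at 30 min than before stimulation (log2 ratio 3.59, 3.45 to 3.73) and 18.1-fold higher than in activated cells (log2 ratio 4.17, 4.08 to 4.27). The 5 pre cells held 6.52, 7.55, 433, 562 and 1125 CPM, and the 10 cells at 30 min ran from 1103 to 9751 CPM with a median of 4830.5 CPM. Here 1 pre cell lay above the lowest cell at 30 min, so these groups overlapped, whereas the activated cells, at 3.04 to 581 CPM, did not reach it. Silent cells reached 1899 CPM, above that cell and above the lowest cells at 60 and 90 min, at 192 and 249 CPM. Full separation was seen for 0.355% of genes against the pre cells and 0.0844% against the activated cells in the IL-5 arm. At 30 min Sqstm1 was 2.46-fold higher in the IL-13 arm than in the IL-5 arm, whose dates differ.

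Within the transition the order of Sqstm1 was less firm. Within the IL-13 arm the median cell was higher at 60 min, at 10297 CPM, than at 30 min, and the cells of the 2 times overlapped widely. On the first title date the level was 8303 CPM at 30 min and 12285 CPM at 60 min, and on the second it was 12467 and 9106 CPM. In the IL-5 arm 30 min was highest on both dates, at 4318 and 4521 CPM. At the other end, activated and pre cells overlapped in both arms and the ratio went either way, with a log2 ratio of activated to pre cells of 0.77 (0.55 to 0.99) in the IL-13 arm and -0.59 (-0.75 to -0.42) in the IL-5 arm. The latter was 0.25 without pre cell 5, which held 53.9% of the pre reads. Mrnip, which overlaps the 3′ end of Sqstm1 on the other strand, had 17 reads in all cells against 103611 for Sqstm1. Whether counting used strand is not given in the sources used here, so reads of the overlap cannot be told apart.

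**Figure D1:**
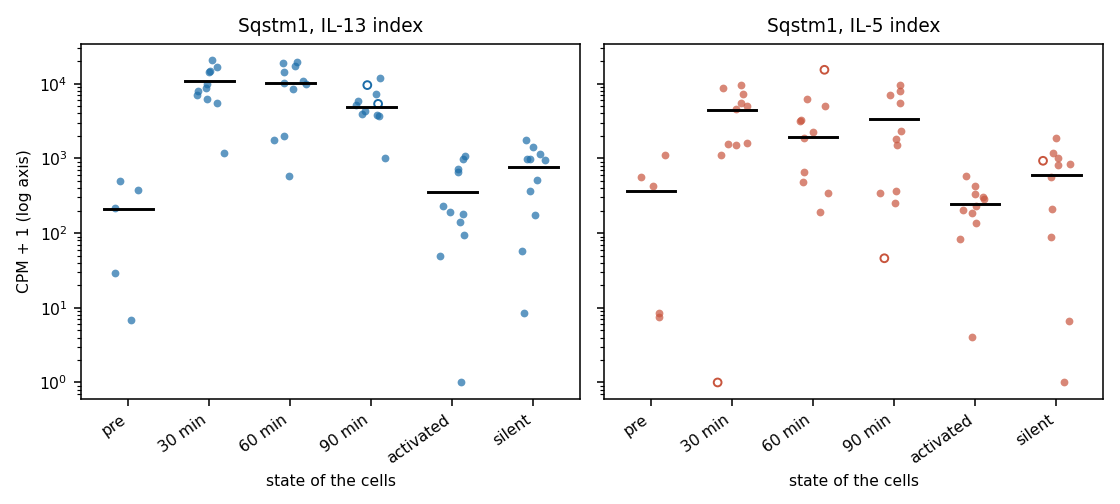
CPM + 1 of Sqstm1 on a log axis in each cell (points) by state for the 2 arms, with the level of the summed reads as black bars and cells under 84667 gene reads as open circles. For the IL-13 arm the 11 cells at 30 min, from 1171 to 20820 CPM, all lie above the 5 pre cells and the 11 activated cells.

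Most other members had their highest level in a state other than 30 min. Of the 9 members that averaged 10 CPM or more in the 6 states of the IL-13 arm, 4 had their highest level at 30 min, namely Sqstm1, Nfe2l2, Hmox1 and Srxn1, 4 were highest in activated cells (Nqo1, Txnrd1, Gclm and Prdx1) and Keap1 in pre cells. For comparison, 13.8% of 6490 genes were highest at 30 min. Within the IL-5 arm 8 members passed this minimum and only Sqstm1 was highest at 30 min, beside 14.7% of 6529 genes, with Nfe2l2, Keap1, Txnrd1 and Srxn1 highest at 90 min, Nqo1 and Gclm in activated cells and Prdx1 in silent cells. Slc7a11 was under the minimum in both arms and Hmox1 in the IL-5 arm. Members could pass through the group where they are high, so these counts describe the members that passed. Leaving aside Sqstm1, which was chosen for its level at 30 min, 3 of 8 were highest at 30 min in the IL-13 arm and 0 of 7 in the IL-5 arm. Several of these places turned on 1 cell or 1 date. With the first title date alone, or with CPM averaged over cells, Sqstm1 was highest at 60 min in the IL-13 arm and Srxn1 was not highest at 30 min. Sqstm1 also moved to 60 min there without 30 min cell 9 or 60 min cell 11, Hmox1 to 90 min without 30 min cell 8, and Keap1 to 60 min without pre cell 4. Srxn1 was highest in activated cells without 30 min cell 7 or 10 or activated cell 8 or 11. Txnrd1 there was highest at 90 min on the first date and with CPM averaged over cells, and at 30 min without activated cell 6. Nqo1 of the IL-13 arm, at 299 to 340 CPM in 4 states, was highest at 30 min without 30 min cell 9, in pre cells without any of 3 cells and at 60 min without any of 12. In the other arm it moved to silent cells without any of 6 cells. Prdx1 there moved from silent to activated cells and Txnrd1 from 90 min to activated cells, each without any of several single cells. Keap1 of the IL-5 arm was highest at 30 min, not at 90 min, without 90 min cell 9, and Srxn1 there was highest at 30 min without any of 7 cells.

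**Figure D2:**
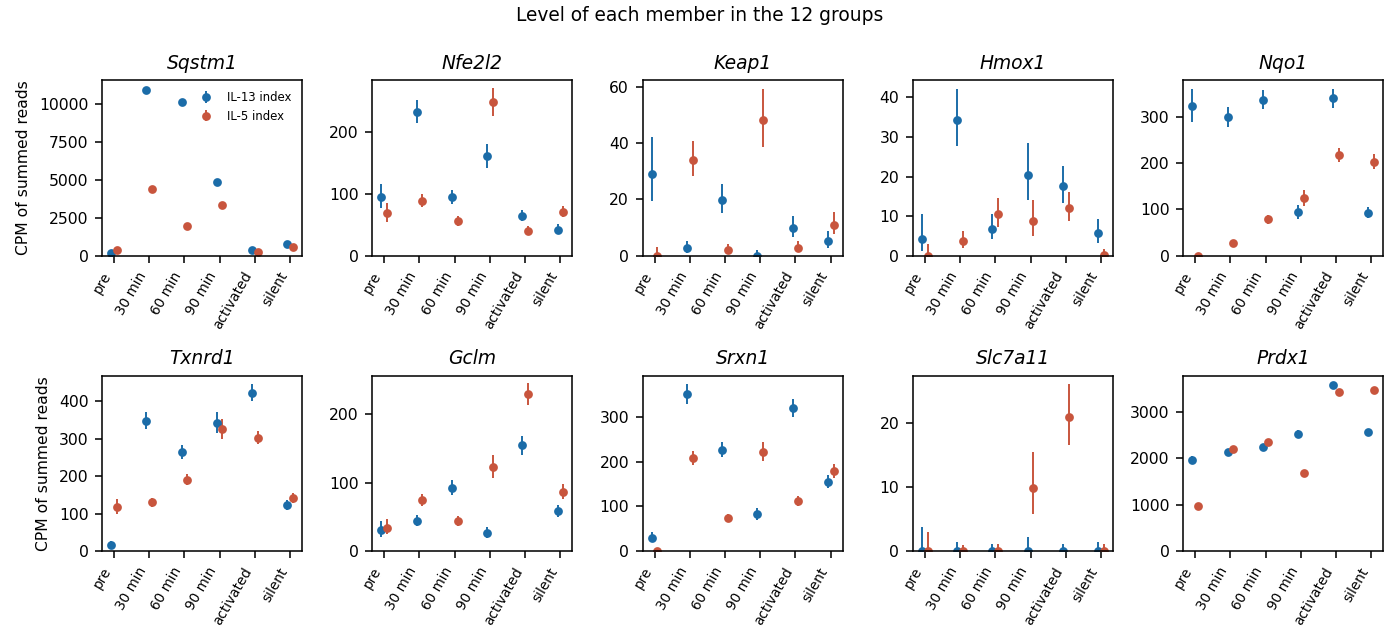
CPM of the summed reads of each member (points, with exact Poisson 95% intervals) by state, for the IL-13 and IL-5 arms, each panel on its own linear axis from 0. Sqstm1 stands at 10922 and 4432 CPM at 30 min and at 357 and 245 CPM in activated cells, whereas Gclm and Prdx1 are highest in activated or silent cells.

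Against the pre cells, 5 of 9 members with a mean of at least 10 CPM were at least 2-fold higher at 30 min in the IL-13 arm (Sqstm1, Nfe2l2, Hmox1, Txnrd1 and Srxn1), with 36.9% of 5791 genes past the same fold, and Keap1 was lower, beside 32.9%. For the IL-5 arm 6 of 8 were at least 2-fold higher (Sqstm1, Keap1, Nqo1, Gclm, Srxn1 and Prdx1), with 37.8% of 5911 genes, and 0 were lower, beside 31.7%. Only Sqstm1 and Srxn1 were at least 2-fold higher in both arms, and Keap1 was past 2-fold in opposite directions. Leaving aside Sqstm1, 4 of 8 and 5 of 7 were higher, with a median log2 ratio of 0.90 and 1.19, beside 0.00 and 0.06 for all genes. In the IL-5 arm Keap1, Nqo1 and Srxn1 had 0 pre reads. They passed the minimum through the 30 min cells alone and could only be called higher, so these counts and the median describe them without testing them. Without 30 min cell 2 the log2 ratio of Nqo1 there was -1.42, a value at the 3 read floor in both groups. In cells of the IL-5 arm the log2 ratios of Gclm and Prdx1 came within 2-fold without 1 cell, at 0.50 for Gclm without 30 min cell 9 and 0.90 for Prdx1 without pre cell 2, and Gclm was at 0.87 on the first date.

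Against activated cells the members divided. In cells of the IL-13 arm 2 of 8, Sqstm1 and Nfe2l2, were at least 2-fold higher at 30 min, beside 31.4% of genes, and Gclm was at least 2-fold lower, beside 31% of genes. In the IL-5 arm 3 of 9, Sqstm1, Nfe2l2 and Keap1, were higher, beside 30.4% of genes, and 4, Nqo1, Txnrd1, Gclm and Slc7a11, were lower, beside 23.4%. Slc7a11 had 0 reads at 30 min, so it could only be called lower. A level past 2-fold over both pre and activated cells, the pattern of Sqstm1, was met by Sqstm1 and Nfe2l2 in the IL-13 arm, beside 17.6% of genes, and by Sqstm1 and Keap1 in the IL-5 arm, beside 16.5%. Leaving aside Sqstm1, 1 of 7 and 2 of 8 were higher, and the median log2 ratio was -0.18 in the IL-13 arm and -0.93 in the IL-5 arm, beside -0.07 and 0.12 for all genes. The dates parted for members near 0 too, with -1.65 and 0.72 for Nqo1 of the IL-13 arm on the first and second date. Hmox1 there, at 0.97 over both dates, was at 2.96 on the second. Txnrd1 of the IL-5 arm was within 2-fold of activated cells on the first date, at -0.63, and at -2.95 on the second. Nfe2l2 there changed direction, from -1.66 on the first date to 6.60 on the second, and Slc7a11 had no reads in either group on the second date. The comparisons share the 30 min cells.

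Silent cells, which had IL-33 but no detected secretion of the index cytokine, gave another reference for 30 min. Their secretion of the other cytokine was not imaged. Of 8 members compared in the IL-13 arm 6 were at least 2-fold higher at 30 min than in silent cells, beside 26.1% of genes, and 0 were lower, beside 37.4%. These were Sqstm1 at a log2 ratio of 3.84, or 14.3-fold, Hmox1 at 2.60 (1.80 to 3.49), Nfe2l2 at 2.46 (2.17 to 2.77), Nqo1 at 1.68, Srxn1 at 1.17 and Txnrd1, with an interval of 1.32 to 1.69. Srxn1 was at 0.31 without 30 min cell 10 and at -2.37 and 3.36 on the 2 dates, and Txnrd1 was at 0.89 on the first date. Of 8 members in the IL-5 arm 2 were higher, Sqstm1 at 2.88 (2.81 to 2.95) and Keap1 at 1.62 (1.06 to 2.21), beside 27% of genes, and Nqo1 was lower at -2.93, beside 26.7%. Keap1 was at 0.72 there without 30 min cell 7 and at 0.57 on the first date. Srxn1 of this arm was at 1.67 on the first date and -2.32 on the second, and Txnrd1 at 0.98 and -2.36. Leaving aside Sqstm1, 5 of 7 and 1 of 7 members were higher in the 2 arms.

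Nfe2l2 (chr2:75675513-75704641, minus strand), which encodes NRF2 itself, had the pattern nearest to Sqstm1 among the members, at a far lower level. In the IL-13 arm it was at 95.4 CPM in the pre cells, 233 CPM (215 to 252) at 30 min, 95.4 CPM at 60 min, 162 CPM at 90 min, 64.2 CPM in activated cells and 42.3 CPM in silent cells. The 5 pre cells held 0, 0, 4.63, 163 and 310 CPM of Nfe2l2, and the 11 cells at 30 min ran from 0 to 804 CPM with a median of 189 CPM, so the groups overlapped. Its log2 ratio at 30 min was 1.29 (0.97 to 1.62) to pre cells and 1.86 (1.63 to 2.10) to activated cells. Without 30 min cell 10 the ratio to pre cells was 0.90, and on the first date alone it was 0.68, both within 2-fold. Within the IL-5 arm Nfe2l2 was at 69.3 CPM in the pre cells, 89.5 CPM at 30 min, 55.9 CPM at 60 min and 249 CPM (226 to 273) at 90 min, when all 10 cells held reads, from 36.4 to 507 CPM. For the IL-5 arm 4 of 10 cells at 30 min held a read, and 1 cell held 76.1% of the reads. Without that cell the log2 ratio to activated cells was -0.76 in place of 1.14.

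Keap1 (chr9:21229730-21239361, minus strand), the adaptor that marks NRF2 for degradation, was scarce, with 403 reads in 21 of 120 cells. Within the IL-13 arm it was at 29.0 CPM in the pre cells, all from 1 cell, and at 2.61 CPM (7 reads) at 30 min. In cells of the IL-5 arm no pre cell held a read of Keap1, where 3 reads over the group would be 2.47 CPM. There 4 of 10 cells at 30 min gave 34.1 CPM (28.3 to 40.7), 13.8-fold higher when set against those 3 reads. The lower counting limit of the log2 ratio was 3.46, and without 30 min cell 7, which held 52.1% of the reads, it was 2.89 in place of 3.78. The 2 arms thus gave opposite ratios for Keap1, each resting on few cells. Without the 1 pre cell that held all reads in the IL-13 arm, pre and 30 min cells held 0 and 7 reads. At 90 min Keap1 was at 48.1 CPM in the IL-5 arm, with 96.6% of its reads in cell 9, and 3 reads remained without that cell. An antisense gene that overlaps Keap1, Gm16754, had 6 reads.

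Srxn1 (chr2:152105516-152111376, plus strand), which encodes sulfiredoxin, the enzyme that repairs overoxidised peroxiredoxins, was higher at 30 min and in activated cells than in pre cells. For the IL-13 arm it was at 30.1 CPM in the pre cells, all from 1 cell, 350.0 CPM (328 to 373) at 30 min, 227 CPM at 60 min, 82.3 CPM at 90 min, 319 CPM in activated cells and 155 CPM in silent cells. At 30 min 6 of 11 cells held reads of Srxn1, with a median of 5.54 CPM and a highest cell of 1991 CPM that held 49.9% of the reads. Without that cell the log2 ratio to pre cells was 2.68 and that to activated cells -0.73. On the first date, the only one with pre cells, 30 min cells were at 68.5 CPM with a ratio to pre cells of 1.19, against 516 CPM on the second date. The ratio to activated cells was -1.24 and 0.29 on the 2 dates. With all cells the log2 ratio was 3.54 (3.01 to 4.13) to pre cells and 0.13 (0.00 to 0.26) to activated cells. In the IL-5 arm no pre cell held a read of Srxn1, and 30 min cells at 208 CPM (194 to 224) were 84.2-fold higher when set against 3 reads. The lower counting limit of that log2 ratio was 6.09, and without 30 min cell 5, which held 45.3% of the reads, the log2 ratio was 5.72. There 6 of 10 cells held reads at 30 min, 7 of 10 at 90 min (222 CPM), and 5 of 11 in activated cells (112 CPM). Activated cell 1 held 75.3% of the activated reads, and the activated level was 248 and 11.2 CPM on the 2 dates.

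Txnrd1 (chr10:82833951-82897712, plus strand), the thioredoxin reductase of the cytosol, was higher than in pre cells from 30 min on and in activated cells of the IL-13 arm. It was at 17.6 CPM (10.3 to 28.2) in the pre cells, 347 CPM (325 to 371) at 30 min, 265 CPM at 60 min, 342 CPM at 90 min and 423 CPM (401 to 446) in activated cells, with 123 CPM in silent cells. The value at 90 min was 930 and 136 CPM on the 2 dates, with 41.8% of the reads in cell 4, one of the cells under 84667 gene reads. Leaving out cell 4 gave a log2 ratio of 90 min to pre cells of 3.56 in place of 4.28. The 5 pre cells held 0, 0, 0, 12.1 and 60.9 CPM of Txnrd1, and 10 of 11 cells at 30 min, which ran from 47.4 to 1001 CPM, lay above them all. All 11 activated cells held reads, from 48.8 to 1275 CPM. Its log2 ratio at 30 min was 4.30 (3.61 to 5.09) to pre cells and -0.28 (-0.41 to -0.16) to activated cells. Within the IL-5 arm Txnrd1 was at 118 CPM in the pre cells, 130.1 CPM at 30 min, 190.2 CPM at 60 min, 326 CPM at 90 min, 303 CPM in activated cells and 142 CPM in silent cells. There 1 pre cell at 990 CPM held 92.3% of the pre reads. Without it the log2 ratio of 30 min to pre cells was 3.67 in place of 0.14. Eid3, Gm38560 and Gm47073, which lie within Txnrd1, were not analysed here.

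Gclm and Prdx1 were highest late. Gclm (chr3:122245557-122270732, plus strand), the modifier subunit of the enzyme that limits glutathione synthesis, was at 31.1 CPM in pre cells, 44.5 CPM (36.8 to 53.2) at 30 min and 154 CPM (141 to 169) in activated cells of the IL-13 arm. For the IL-5 arm Gclm was at 34.6 CPM in pre cells, 74.3 CPM (65.6 to 83.9) at 30 min and 229 CPM (214 to 245) in activated cells. At 30 min 5 of 11 and 5 of 10 cells held a read of Gclm, against 8 of 11 and 9 of 11 activated cells. Its log2 ratio of 30 min to activated cells was -1.80 (-2.10 to -1.50) and -1.62 (-1.83 to -1.42). Gm17494, which overlaps Gclm on the other strand, had 246 reads against 2923 for Gclm, and Gm6061 on its strand had 35.

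Prdx1 (chr4:116685544-116700822, plus strand), an abundant peroxiredoxin that removes hydrogen peroxide, was read in 113 of 114 cells. In cells of the IL-13 arm it was at 1970.2 CPM in pre cells, 2145 CPM at 30 min, 2240.1 CPM at 60 min, 2536 CPM at 90 min, 3579 CPM (3514 to 3646) in activated cells and 2574 CPM in silent cells. In cells of the IL-5 arm Prdx1 was at 966 CPM in pre cells, 2201 CPM at 30 min, 2350 CPM at 60 min, 1683 CPM at 90 min, 3431 CPM in activated cells and 3472 CPM in silent cells. The cells overlapped between all states named. The log2 ratio of 30 min to pre cells was 0.12 (0.05 to 0.20) in the IL-13 arm and 1.19 (1.10 to 1.28) in the IL-5 arm, and that of 30 min to activated cells was -0.74 and -0.64. The small IL-13 ratio to pre cells turned, to -0.84 on the first date and to -0.24 without 30 min cell 7, as 30 min cells held 1100 CPM on the first date (the only one with pre cells) and 2762 CPM on the second. The ratio to activated cells was -1.71 and -0.37 on the 2 dates in the IL-13 arm and -1.04 and -0.18 in the IL-5 arm.

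Nqo1 (chr8:107388225-107403206, minus strand), a quinone reductase often used as a marker of NRF2 activity, was present in some cells and absent in others in every group but the IL-5 pre cells, which had none. In the IL-13 arm it was at 322 CPM in pre cells, with 2 of 5 cells at 509 and 817 CPM and the others at 0, and at 299 CPM at 30 min, with 8 of 11 cells holding reads. Activated cells were at 340 CPM (320 to 361) and silent cells at 93.3 CPM. In the IL-5 arm no pre cell held a read of Nqo1, and 30 min cells were at 26.7 CPM with 98.9% of the reads in 1 cell. Activated cells there were at 218 CPM (203 to 234), with 57.1% of the reads in cell 5. With 337 CPM at 60 min in the IL-13 arm, its levels in 4 states lay close together there. Without the 1 cell with most reads, 1 read of it remained at 30 min in the IL-5 arm.

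Hmox1 (chr8:75093621-75100589, plus strand), which encodes the haem-degrading enzyme haem oxygenase 1, had 333 reads in 43 of 120 cells. Within the IL-13 arm it was at 4.15 CPM (4 reads) in pre cells, 34.4 CPM (27.7 to 42.1) at 30 min from 3 of 11 cells and 17.5 CPM in activated cells. Its log2 ratio of 30 min to pre cells was 3.05 (1.65 to 4.96), and 1.95 without 30 min cell 8. Within the IL-5 arm it had 0 reads in pre cells and 3.66 CPM at 30 min, 12.1 CPM in activated cells and 0.326 CPM, or 1 read, in silent cells. Slc7a11 (chr3:49892526-50443614, minus strand), the transport subunit of the cystine importer, had 96 reads in 3 of 120 cells, all in the IL-5 arm, with 9.84 CPM at 90 min and 20.9 CPM (16.5 to 26.1) in activated cells. It had 0 reads in all 6 IL-13 groups, where 3 reads would be 0.939 to 3.11 CPM.

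**Figure D3:**
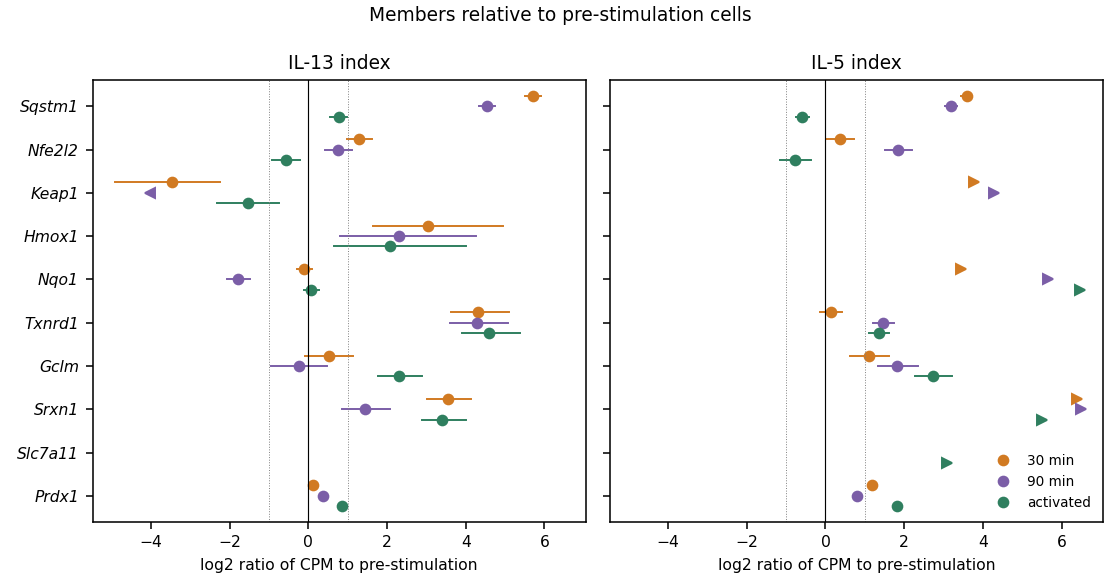
Log2 ratio of CPM to pre-stimulation cells for 30 min, 90 min and activated cells (points, with 95% counting intervals as lines), one row per member, with dotted lines at 2-fold. Triangles are bounds where one group had 0 reads, and a member under 10 CPM has no point; Sqstm1 is at 5.70 and 3.59 at 30 min and within 2-fold in activated cells, while Txnrd1 in the IL-13 arm is at 4.30 and 4.58.

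Later states were set against the pre cells as well. In activated cells 4 of 9 members were at least 2-fold higher than before stimulation in the IL-13 arm (Hmox1, Txnrd1, Gclm and Srxn1), beside 36.8% of genes, and 6 of 8 in the IL-5 arm (Nqo1, Txnrd1, Gclm, Srxn1, Slc7a11 and Prdx1), beside 36.3%. Lower by the same fold were 1 of 9, Keap1, beside 34.1%, and 0 of 8, beside 36%. Nqo1, Srxn1 and Slc7a11 of the IL-5 arm had 0 pre reads, so against pre cells they could only be called higher where compared. In silent cells it was 3 of 8 (Sqstm1, Txnrd1 and Srxn1), beside 42.2%, and 4 of 7 (Nqo1, Gclm, Srxn1 and Prdx1), beside 38%. Silent cells were lower than pre cells for 3 of 8 members in the IL-13 arm, beside 26.8%, with log2 ratios of -1.17 for Nfe2l2, -2.46 for Keap1 and -1.79 for Nqo1, and for 0 of 7 in the IL-5 arm, beside 31.6%. Each of the 3 was past 2-fold no longer without 1 pre cell, at -0.28 for Nfe2l2 without cell 3, 0.49 for Keap1 without cell 4, whose 0 reads left were set to 3, and -0.71 for Nqo1 without cell 1. Txnrd1 was higher in activated than in silent cells of both arms, at a log2 ratio of 1.78 (1.61 to 1.96) for IL-13 and 1.09 (0.93 to 1.25) for IL-5. So was Gclm, at 1.41 (1.14 to 1.68) and 1.40 (1.20 to 1.60). Sqstm1 had the opposite sign, and its log2 ratio of activated to silent cells was -1.10 (-1.20 to -0.99) for IL-13 and -1.29 (-1.41 to -1.18) for IL-5. Among all members compared, 5 of 8 (Hmox1, Nqo1, Txnrd1, Gclm and Srxn1) were at least 2-fold higher in activated than in silent cells in the IL-13 arm, beside 24.5% of genes, and 3 of 8 (Txnrd1, Gclm and Slc7a11) in the IL-5 arm, beside 21.1%. Slc7a11 had 0 reads in silent cells there, so it could only be called higher. Title dates and single cells decided several of these calls. By date, first and then second, the log2 ratio of activated to silent cells in the IL-13 arm was -1.14 and 3.07 for Srxn1, 4.95 and 0.79 for Nqo1, 0.98 and 2.24 for Txnrd1 and -0.92 and -1.21 for Sqstm1. The IL-5 arm gave -0.34 and -2.05 for Sqstm1, 1.61 and 0.58 for Txnrd1 and 0.94 and 1.87 for Gclm, and Slc7a11 had no reads in either group on the second date. For the IL-13 arm the log2 ratio of activated to silent cells was 0.77 for Hmox1 without activated cell 4, 0.93 for Gclm without activated cell 1, 0.30 for Srxn1 without activated cell 10 and -0.81 for Sqstm1 without silent cell 7, and in the IL-5 arm it was 0.88 for Txnrd1 without activated cell 5. Against pre cells it was 0.46 for Srxn1 in silent cells of the IL-13 arm without silent cell 2, 0.79 for Gclm in silent cells of the IL-5 arm without silent cell 5, and 0.95 for Txnrd1 in activated cells of that arm without pre cell 2.

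The pre cells, to which these ratios refer, differed among themselves. In cells of the IL-13 arm 1 of the 5 cells held the highest level of 6 members, with 817 CPM of Nqo1, 60.9 CPM of Txnrd1, 122 CPM of Gclm, 118 CPM of Srxn1, 16.3 CPM of Hmox1 and 3388 CPM of Prdx1, and with only 28.4 CPM of Sqstm1. It was the only pre cell of this arm with reads of Gclm, Srxn1 or Hmox1. The same cell had 4034 CPM of Cd3g, against 0 to 552 CPM in the other 4, and 9068 CPM of summed ILC2 markers; the part of Cd3g in this was not tested. Without it the other 4 cells held 2 reads of Txnrd1 and none of Gclm or Srxn1, and with these set to 3 reads the log2 ratio of 30 min to pre cells was 6.38 for Txnrd1, 3.41 for Gclm and 6.39 for Srxn1, in place of 4.30, 0.52 and 3.54. For the IL-5 arm 1 cell held 990 CPM of Txnrd1 and 285 CPM of Gclm, with no Cd3g read, and without it the log2 ratio of Gclm was 4.33 in place of 1.10.

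Over the 12 groups, the members did not track Sqstm1 closely. Among 2657 other genes with a mean of at least 50 CPM, Pearson's r to Sqstm1 on log2(CPM + 1) was 0.65 for Nfe2l2 (rank 129), 0.46 for Txnrd1 (rank 401), 0.44 for Srxn1 (rank 444), 0.14 for Nqo1, -0.11 for Prdx1 and -0.18 for Gclm. The 10 genes nearest to Sqstm1 were Cd69, an early activation antigen (r = 0.91), Gm43305 (0.90), Grb2, an adaptor of receptor signalling (0.88), Actg1, a cytoplasmic actin (0.88), Adam8 (0.88), Kdm2b, a histone demethylase (0.87), Sdcbp (0.87), Akna (0.87), Irf5 (0.87) and Adora2b, an adenosine receptor (0.86). Cd69 was at 12.4 CPM in the IL-13 pre cells, 194 CPM at 30 min and 21.3 CPM in activated cells. These are descriptions over 12 points that share libraries and total reads within a group.

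Gene lists of related pathways, chosen with earlier results of these data known, gave a wider view. Counts of each list are to be read against all genes, of which 36.9% were higher and 32.9% lower at 30 min than before stimulation in the IL-13 arm, and 37.8% and 31.7% in the IL-5 arm. Against activated cells the shares of all genes were 31.4% higher and 31% lower, and 30.4% and 23.4%. Of 32 other NRF2 target genes, 24 reached a mean of 10 CPM in the IL-13 arm, of which 12 were at least 2-fold higher and 5 lower at 30 min than before stimulation, with a median log2 ratio of 1.07. In the IL-5 arm 7 of 19 were higher and 5 lower, with a median of -0.45. Against activated cells 5 of 24 were higher and 7 lower in the IL-13 arm and 0 of 22 were higher and 5 lower in the IL-5 arm, with medians of 0.23 and -0.49. G6pdx, the first enzyme of the pentose phosphate pathway, which supplies NADPH, was at 247 CPM at 30 min in the IL-13 arm with 0 reads in the pre cells, and at 195 CPM against 77.5 CPM in the IL-5 arm. Abcc1, an exporter of glutathione conjugates, was at 126 and 57.7 CPM at 30 min with 0 reads in both pre groups. Gstm1, a glutathione transferase, was at 154 CPM at 30 min with 0 reads in pre cells in the IL-13 arm and had a log2 ratio of -0.79 in the IL-5 arm.

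Of 16 NRF2 partners and regulators, 10 and 12 reached the minimum of 10 CPM in the IL-13 and IL-5 arm. Among them 6 of 10 were higher and 1 lower at 30 min than before stimulation in the IL-13 arm, and 4 of 12 higher and 5 lower in the IL-5 arm, with medians of 3.08 and 0.05. The first of these was -0.037 where a mean of 50 CPM was asked for. Against activated cells they were 7 of 12 higher and 2 lower, and 3 of 10 higher and 2 lower. Cdkn1a, the cell cycle inhibitor p21, was at 18.7 CPM in the pre cells of the IL-13 arm, with a log2 ratio at 30 min of 5.07 (4.40 to 5.82), and its log2 ratio in the IL-5 arm was 0.91. Dpp3, a KEAP1-binding peptidase, had a log2 ratio of -1.46 in the IL-13 arm and 0.09 in the IL-5 arm, and Rbx1, a subunit of the ligase that KEAP1 serves, -0.67 and -1.10.

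The autophagy side of p62 was mixed. Of 15 autophagy receptors and ATG8 genes in the files 10 were compared in each arm, and 2 of 10 were higher and 3 lower at 30 min than in pre cells in the IL-13 arm and 4 of 10 higher and 2 lower in the IL-5 arm, with medians of -0.12 and 0.37. Against activated cells 5 of 9 and 3 of 10 were higher and 2 and 1 lower. Tax1bp1, an autophagy receptor like p62, was at 55.0 CPM in pre cells, 449 CPM at 30 min and 48.9 CPM in activated cells of the IL-13 arm, whereas its log2 ratio in the IL-5 arm was -0.21. Gabarapl1, an ATG8 gene, had a log2 ratio of 2.29 (1.37 to 3.39) in the IL-13 arm and 56.3 CPM against 0 reads in the IL-5 arm. Tollip was lower at 30 min in the IL-13 arm, with a log2 ratio of -2.57. Of 22 autophagy machinery genes 10 were compared in each arm, and 6 of 10 were higher and 3 lower in the IL-13 arm and 5 of 10 higher and 0 lower in the IL-5 arm, with medians of 1.79 and 0.57. The IL-13 median was -1.98 with a minimum of 50 CPM. Against activated cells 4 of 10 and 8 of 13 of the machinery were higher and 1 and 3 lower. Atg12, which is joined to ATG5 in phagophore growth, was at 93.8 and 56.9 CPM at 30 min with 0 reads in both pre groups, and Atg4b was at 51.6 CPM with 0 reads in the IL-13 pre cells. Rb1cc1, an autophagy initiation scaffold, was lower in the IL-13 arm, with a log2 ratio of -6.60 (-8.90 to -5.02), and at 4.79 CPM with 0 pre reads in the IL-5 arm. Of 15 p62 signalling partners 9 were compared in each arm, and 4 of 9 were higher and 3 lower in each arm, with medians of 1.00 and 0.79, and Prkcz, an atypical protein kinase C, was at 113 CPM against 0 reads in the IL-13 arm and at a log2 ratio of -0.02 in the IL-5 arm. Casp8 had log2 ratios of 1.00 (0.47 to 1.56) and 0.79. Against activated cells 3 of 7 partners were higher and 1 lower in the IL-13 arm, and 5 of 8 higher and 2 lower in the IL-5 arm.

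Of 23 other antioxidant enzymes 19 and 17 were compared, and 3 of 19 were higher and 7 lower at 30 min than in pre cells in the IL-13 arm and 3 of 17 higher and 5 lower in the IL-5 arm, with medians of -0.77 and -0.19. Against activated cells 2 of 18 were higher and 10 lower in the IL-13 arm and 2 of 17 higher and 2 lower in the IL-5 arm. Txnip, the inhibitor of thioredoxin, was lower at 30 min in both arms, with log2 ratios of -3.80 (-4.42 to -3.23) and -2.37. Prdx4 had log2 ratios of -4.02 (-4.67 to -3.43) and -0.19, and Glrx5, a glutaredoxin of mitochondria, 3.27 (2.41 to 4.29) and 3.42. Of 21 ATF4 target genes, which serve the response to amino acid shortage, 5 of 8 and 5 of 10 compared were higher and 2 and 2 lower at 30 min than in pre cells, with medians of 1.28 and 1.84. With the pre cells of both arms the first median was -0.069. Against activated cells 1 of 12 was higher and 7 were lower in the IL-13 arm, and 1 of 12 higher and 5 lower in the IL-5 arm. Slc3a2, the partner subunit of the cystine importer, had log2 ratios at 30 min of 2.44 (2.05 to 2.86) and 0.51. Cebpg was at 91.2 and 71.8 CPM against 0 reads in both pre groups, and Psat1, of serine synthesis, had a log2 ratio of -2.23 in the IL-13 arm and 100.5 CPM against 0 reads in the IL-5 arm.

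**Figure D4:**
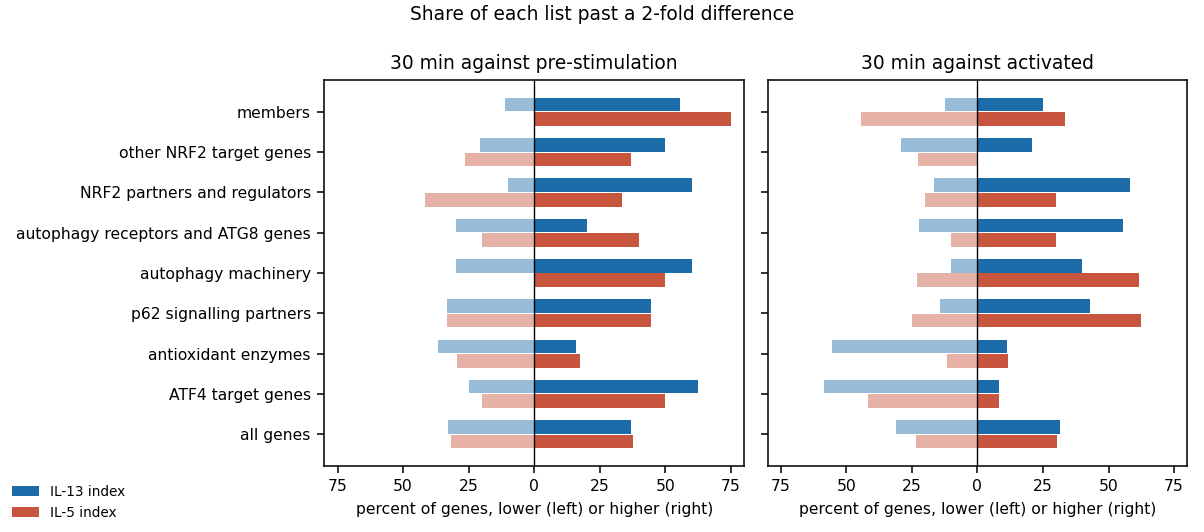
Percent of the genes of each list with a mean of at least 10 CPM that are past a 2-fold difference, higher at 30 min to the right and lower at 30 min to the left of 0, for 30 min against pre-stimulation cells and against activated cells in the 2 arms. All genes lie between 30.4% and 37.8% on the higher side, the antioxidant enzymes at 11.1% to 17.6% and the other NRF2 target genes at 0% to 50%. On the lower side all genes lie at 23.4% to 32.9% and the antioxidant enzymes at 11.8% to 55.6%.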

How the data were processed

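Each cell gave 1 library of 3′ RNA ends (SMART-Seq v4 3′ DE), with 5 or 6 libraries pooled before tagmentation. The deposited counts are whole reads of each gene. To make them the authors aligned reads to the mouse genome (mm10) by TopHat2 and tallied them by HTSeq. Neither a strand option nor an annotation version is given in the sources used here. Of tallied alignments 62.0% were gene reads, 7.42% hit no feature, 1.86% were ambiguous and 28.7% were not unique, and only gene reads were used. Identifiers were named from GENCODE vM21 (GRCm38), which named 45229 of 46078.

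Source names and titles gave the groups. The members and gene lists were chosen with earlier results of these data known. Reads were summed per group, and a gene was compared where its mean was at least 10 CPM. A group under 3 reads was set to 3 in ratios, so folds against 0 reads are values at that floor and not lower limits. Named genes of each list were up to 3 with the largest absolute log2 ratio at 30 min to pre cells in the IL-13 arm that reached 50 CPM in the higher group. All 10 members and the 10 genes nearest to Sqstm1 were also named. No test between groups was made, and Dixon's criterion was applied to the 5 pre cells of an arm. The ratio was tested on simulated data with known changes. Python 3.11.15, numpy 2.4.6, scipy 1.17.1, pandas 2.3.3, matplotlib 3.10.9, R 4.3.3, edgeR 4.0.16 and DESeq2 1.42.0 were used, the last 2 for scaling factors only. Alternatives were other scalings, title dates, subsets of cells, CPM minimums, pseudocounts and leaving out each cell.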

Additional observations from a re-analysis of the deposited data

Results flagged for a closer look

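Among the 5 pre-stimulation cells of an arm, 1 cell stood apart from the other 4 by Dixon's criterion for 7 of the 14 combinations of member and arm with reads that were examined. In 4 of the 7, Keap1, Hmox1, Gclm and Srxn1 of the IL-13 arm, only 1 of the 5 cells held reads, so that the criterion was met by construction. Chance gives about 1 in 20 for values from a normal distribution, a rate that does not hold for values with so many zeros, and the members of a cell are not independent. In the IL-13 arm these were 166 CPM of Keap1 in cell 4 and, all in cell 1, 16.3 CPM of Hmox1, 60.9 CPM of Txnrd1 (next cell 12.1 CPM), 122 CPM of Gclm and 118 CPM of Srxn1. In the IL-5 arm they were 990 CPM of Txnrd1 (next cell 30.2 CPM) and 285 CPM of Gclm (next cell 13.6 CPM), both in cell 1.

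The arms gave opposite log2 ratios to pre cells in some members, and these differences were not tested. Keap1 was at -3.47 in the IL-13 arm and 3.78 in the IL-5 arm at 30 min, and at -4.01 and 4.28 at 90 min. Nqo1 was at -1.77 and 5.65 at 90 min and at -1.79 and 6.36 in silent cells. All IL-5 values here are set against 0 pre reads taken as 3, and Keap1 at 90 min in the IL-13 arm had 0 reads taken as 3. All pre reads of Keap1 in the IL-13 arm came from cell 4. Without it the value at 30 min was -0.53, with 0 pre reads taken as 3 against 7 reads at 30 min. The value of Keap1 at 90 min in the IL-5 arm rested on cell 9, and was -0.45 without it, with 3 reads left.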

How the results depend on the processing

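Sqstm1 was higher at 30 min than in pre and activated cells under every alternative run. Its log2 ratio to pre cells in the IL-13 arm was 5.92 with edgeR TMM factors, 5.31 on the first title date, 5.19 with the pre cells of both arms and 5.46 with all 33 transition cells, and 5.33 to 6.21 leaving out 1 cell. Within the IL-5 arm it was 3.32 with the mean of the cells' CPM, 3.95 with TMM, 3.89 with both pre groups, 3.14 with all transition cells and 3.17 to 4.42 leaving out 1 cell. Its ratio to activated cells in the IL-13 arm was 4.72 with mean CPM, 5.12 with DESeq2 size factors, 4.84 without the 6 secreted product genes, 4.40 and 5.22 on the 2 dates, 4.70 with all transition cells and 4.72 to 5.22 leaving out 1 cell. For the IL-5 arm it was 4.08 with mean CPM, 4.06 with TMM, 3.84 and 4.47 on the 2 dates, 3.73 with all transition cells and 3.94 to 4.36 leaving out 1 cell.

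Members highest at 30 min numbered 2 in the IL-13 arm with mean CPM and on the first date, and 2 in the IL-5 arm with TMM, on the first date and with all transition cells; leaving out 1 cell gave 3 to 5 and 1 to 2. Members at least 2-fold higher at 30 min than in pre cells then numbered 4 to 6 and 4 to 7, and than in activated cells 2 to 3 and 2 to 4.

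The list below covers 30 min to pre, 30 min to activated and activated to pre cells. In these, log2 ratios and medians of at least 1 in size turned direction as follows, and the cause was not tested. Turns of smaller ones, and turns in other comparisons, are not listed here. With a minimum of 50 CPM the IL-13 medians of 30 min to pre cells were -0.037 for NRF2 partners and -1.98 for autophagy machinery. With both pre groups the IL-13 medians were -0.069 for ATF4 targets at 30 min and -0.16 for NRF2 partners in activated cells, and Nqo1 at 30 min in the IL-5 arm was at -2.42. Without a minimum the IL-5 medians of p62 partners were -0.14 for 30 min to activated and 1.32 for activated to pre cells. The second date held no pre cells, so its ratios to pre cells set it against those of the first date. There Hmox1 in activated to pre cells of the IL-13 arm was at -0.0045, and in the IL-5 arm Nqo1 at 30 min to pre was at -0.72, Slc7a11 at 0.10 for 30 min to activated and -0.82 for activated to pre, values at the 3 read floor in both groups. With mean CPM Gclm at 30 min to pre in the IL-5 arm was at -0.042, and on the first date Nfe2l2 at 30 min to activated was at -1.66. Leaving out 1 cell gave Keap1 in activated to pre cells of the IL-13 arm -4.79 to 1.41, and in the IL-5 arm Nqo1 at 30 min to pre -1.42 to 3.64 and Nfe2l2 at 30 min to activated -0.76 to 1.71, and the IL-5 medians of p62 partners -0.030 to 2.41 for 30 min to activated and -1.80 to 0.10 for activated to pre cells. Of these, the -1.42 of Nqo1 is at the 3 read floor in both groups, and the 1.41 of Keap1 has 0 pre reads taken as 3.

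Each group was treated as 1 sample, and no paired analysis and no fit were made. All states but pre share the 2 title dates, and ratios within dates are given in the text for several members. Keap1, Hmox1 and Slc7a11 hold few reads in most groups, so their ratios have wide counting intervals.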
